A study of Mus musculus with 12 samples.

Results

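Il10, Il19, Il10ra and Il10rb, 4 of the 43131 genes counted in bone marrow-derived macrophages (BMDMs), encode a pair of IL-10 family cytokines and the IL-10 receptor. They were chosen by gene symbol, and for each gene the transcript with the highest total count was used. The BMDMs came from C57BL/6 mice carrying loxP-flanked tlr4 on both alleles, either without Cre (tlr4f/f) or with Cre driven by the lysozyme M promoter (tlr4f/f-lysM-cre), which deletes tlr4 in myeloid cells. All cells were grown in M-CSF (50 ng/mL, 7 days), and were then left unstimulated (LPS-) or given LPS, the bacterial ligand of TLR4, at 1 µg/mL for 6 h (LPS+). RNA was sequenced in 3 libraries per group and 12 libraries in all, which held between 33577087 and 56445268 counts over these genes. The labels number the BMDM samples but do not say that they came from separate mice or cultures, so p-values measure the spread between these samples only.

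Column group A is headed LPS- tlr4f/f in the table of counts, and group B is headed LPS- tlr4f/f-lysM-cre. Group C carries the heading LPS+ tlr4f/f, while group D carries LPS+ tlr4f/f-lysM-cre. These headings have to be settled before any direction is read, because 3 genes go against them. Tlr4, the targeted gene, had 4486, 9136 and 6449 counts in group A and 4367, 3041 and 3739 in group B. It had 1484, 1086 and 1412 in group C and 1191, 891 and 1117 in group D. These counts cover the whole transcript, so reads outside a deleted exon are included. Lyz2, the locus into which the lysM-cre allele is inserted, averaged 13106, 7587, 11.8 and 62.3 CPM (the counts scaled to a common library total) in groups A to D. Il1b, an inflammatory cytokine gene that LPS induces in macrophages, averaged 3.70, 4224, 3.21 and 2600 CPM. Low Tlr4 and low Lyz2 thus went with the LPS+ headings of groups C and D, and high Il1b with the lysM-cre headings of groups B and D. If the headings of groups B and C are exchanged, low Tlr4 and Lyz2 fall to the lysM-cre groups and high Il1b to the LPS groups. Groups are therefore called by their letter, and each comparison is given under both readings, headed and exchanged. The exchange changes the name of a comparison and not its value.

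IL-10 is the main cytokine with which macrophages restrain their own inflammatory output. It binds a receptor of the ligand-binding chain IL-10RA and the chain IL-10RB, which is shared with the IL-22 and interferon-lambda receptors, and signals through JAK1, TYK2 and STAT3 to genes such as Socs3. IL-19 is a family member encoded next to Il10 in the cytokine cluster, and it signals through a different receptor, IL-20RA with IL-20RB. In macrophages, Il10 is known to be transcribed after TLR signalling through the MAP kinases ERK and p38 and through factors such as MAF.

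In GRCm38 (mm10), Il10 lies on the plus strand at chr1:131019845-131024974, and Il19 on the minus strand at chr1:130932656-130940115, so that their start sites are 79.7 kb apart. Il10ra lies at chr9:45253837-45269149 on the minus strand, and Il10rb at chr16:91406164-91425834 on the plus strand, between Ifnar2 and Ifnar1. The RefSeq table of promoters held 1 of the 4 genes, Il19, whose counts ran from 0 to 1367. The 250 bases before its start site (GRCm38.p6, chr1:130940116-130940365, minus strand) are shown for that reason, with the motif matches in capitals:

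Il19 promoter: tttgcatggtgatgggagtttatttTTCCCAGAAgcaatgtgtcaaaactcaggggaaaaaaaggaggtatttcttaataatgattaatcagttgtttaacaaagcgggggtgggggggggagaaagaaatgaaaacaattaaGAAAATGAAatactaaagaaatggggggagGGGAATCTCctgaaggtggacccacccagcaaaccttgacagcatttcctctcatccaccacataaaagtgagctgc

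The capitals are, in order, TTCCCAGAA, a match to the STAT site TTCNNNGAA that begins 225 bases before the start, GAAAATGAA, a match to the interferon response motif GAAANNGAA at 107 bases, and GGGAATCTC, a match to the kB motif GGGANNNNC at 77 bases. Both strands were searched and the matches do not overlap. The same motifs occurred in 7.02%, 7.13% and 49.0% of the 32851 promoters of the same length. No match was found in the window to the CRE half-site TGACG, which occurred in 17.8% of promoters, or to the AP-1 motif TGANTCA, in 6.75%. The C/EBP motif TTGCNNAA, in 9.56% of promoters, and the Maf half-site TGCTGA, in 16.1%, had no match either. The same held for the E-box CACGTG (6.02%), the GC box GGGCGG (32.7%) and the TATA box TATAAA (12.4%). The gene model of Il19 in RefSeq reaches further upstream, and whether the counted transcript starts here was not tested. A match describes letters and was not tested as a site.

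Il10 was highest in group B and higher in group D than in group C. Its transcript NM_010548.2 had 161, 189 and 26 counts in the 3 libraries of group A. It had 2504, 4177 and 5529 in group B. In group C it had 32, 31 and 42, and in group D 312, 216 and 228. No library of group B overlapped another group, and the lowest count of group D lay above the highest of A and C. After TMM normalization, which scales libraries on the ratios of most of their genes, these were 2.09 ± 1.40, 123 ± 52.8, 0.729 ± 0.0619 and 6.08 ± 1.08 CPM (SD, n = 3).

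Il19 was likewise highest in group B and next in group D, at lower counts. The transcript XM_006529706.1 had 0, 1 and 0 counts in group A and 0, 0 and 0 in group C. It had 117, 459 and 1367 counts in group B and 18, 4 and 21 in group D. Groups A and C are at the floor, set here at 3 counts per library, and no library of B or D overlapped them. The means of B and D were 20.02 ± 20.3 and 0.331 ± 0.193 CPM (SD, n = 3), and within B the libraries ranged from 3.14 to 42.6 CPM. Il19 has 3 transcripts in the table that share most of their reads, the others with 91.0% and 84.2% of the total count of the first.

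Il10ra and Il10rb were expressed in every library and varied less. Il10ra (NM_008348.3) measured 48.9, 77.1 and 171 CPM in group A, where replicate 3 stood apart. It measured 229, 202 and 165 CPM in group B, 55.04, 57.6 and 49.5 in group C, and 135, 153 and 146 in group D. Il10rb (NM_008349.5) measured 177, 199 and 183 CPM, then 232, 235 and 204, then 130, 137 and 128, and then 190, 184 and 185 CPM in the same order of groups. Groups A and B overlapped in Il10ra through that replicate and did not overlap in Il10rb. For both chains group C had the lowest mean and group B the highest.

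**Figure D1:**
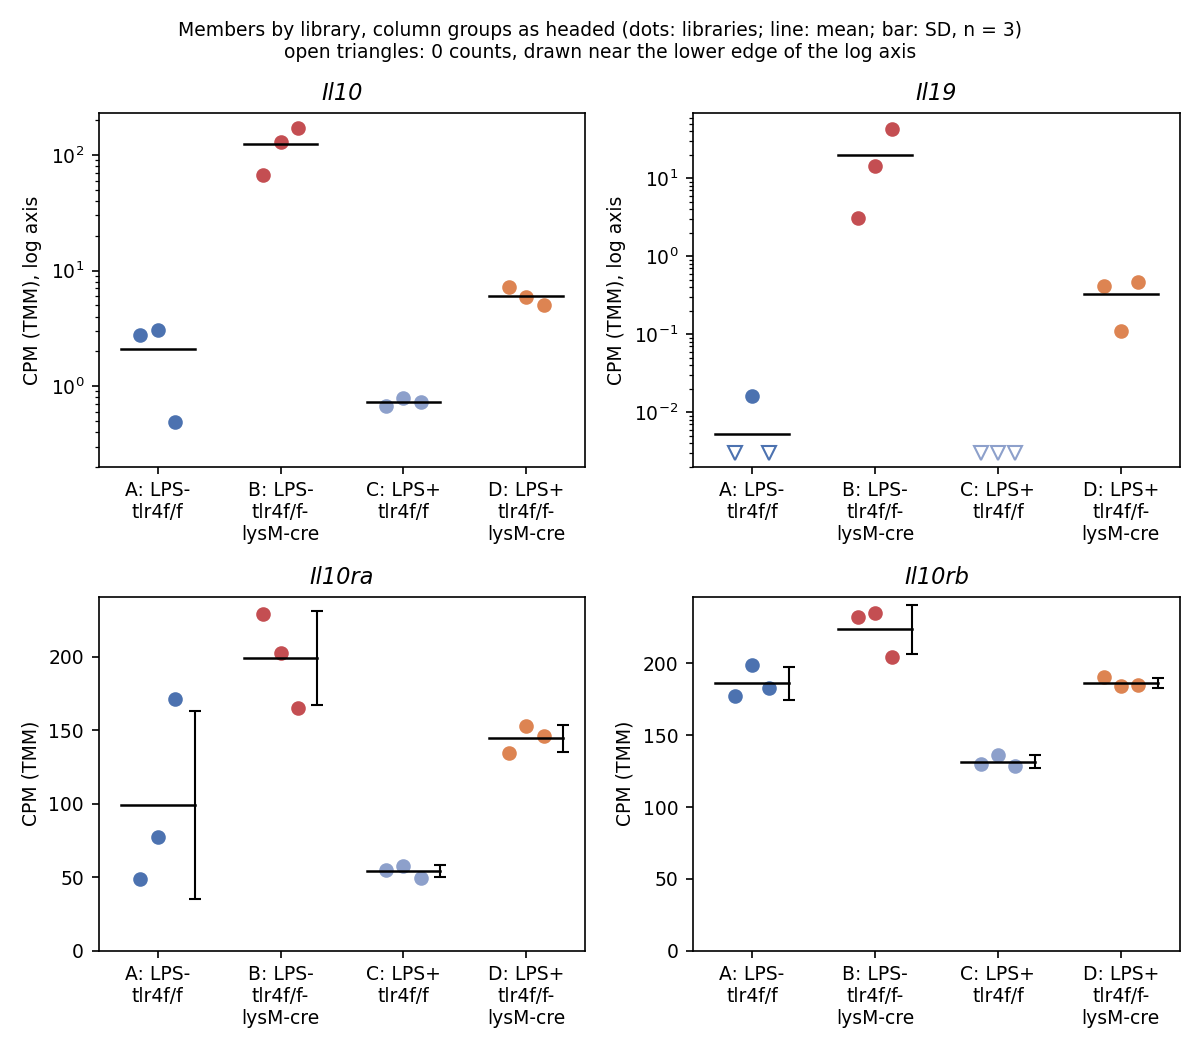
CPM of Il10, Il19, Il10ra and Il10rb (vertical axes, log axis for Il10 and Il19) in each library of groups A to D (horizontal axis). Dots are libraries, horizontal lines are means, bars (drawn on the linear axes only) are SDs (n = 3) and open triangles are libraries with 0 counts. The 3 libraries of group B lie above all others for Il10, between 67.2 and 172 CPM.

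Per length of transcript, the chains of the receptor can be set beside the cytokines. Il10rb had between 71.1 and 121 CPM per kb as group means, and Il10ra between 15.5 and 56.9. Il10 had 94.4 CPM per kb in group B, above Il10ra and below Il10rb there, and between 0.558 and 4.65 in the other groups. Il19 reached 18.3 CPM per kb in the same libraries.

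A gene was called a differentially expressed gene (DEG) at a fold change above 2 and a Benjamini-Hochberg adjusted p below 0.01 in edgeR's quasi-likelihood test, fitted on the 6 libraries compared. In the order of levels, not all neighbouring groups differed beyond the spread of their libraries. Groups D and A differ in both LPS and genotype under both readings. For Il10, groups D and A did not overlap but differed at an adjusted p of 0.0974 in edgeR, and the libraries of A and C overlapped. For Il10ra, the only neighbours in the order without overlap were the highest 2 groups (edgeR, adjusted p = 0.0548). For Il10rb, groups D and A had means of 186 and 186 CPM and overlapped. Between D and A none of the 3 genes tested was a DEG, against 13.4% of all genes. The highest and lowest groups, B and C, also differ in both LPS and genotype as headed and exchanged, B being unstimulated tlr4f/f-lysM-cre in the first reading and LPS-treated tlr4f/f in the second. They differed in all 4 genes. The log2 difference was 7.39 for Il10, 1.87 for Il10ra and 0.76 for Il10rb (edgeR, adjusted p = 3.45e-05, 0.000114 and 0.00106). The mean of Il19 was at least 314-fold higher (edgeR, adjusted p = 0.00597). Il19 passed the filter only through group B, where it was high, so its call is a description and no support. The change in Il10rb was below 2-fold, so 3 of the 4 were DEGs there and higher in B, against 28.9% of the genes tested and 14.7% for higher genes alone. The call of Il19 was lost without B replicate 2 or any 1 library of C (adjusted p up to 0.0177).

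The comparison of group B with group A asks, as headed, what the loss of tlr4 does without LPS, and, with the headings exchanged, what LPS does in tlr4f/f BMDMs. Il10 was higher by a log2 fold change of 5.87 (SE 0.80, edgeR, adjusted p = 0.00285, 3 libraries against 3). The mean of Il19 was at least 386-fold higher (edgeR, adjusted p = 0.00283), with B libraries from 3.14 to 42.6 CPM. Here too Il19 passed the filter only through group B, so its call is a description and no support. In both genes every library of B lay above every library of A, and the share of all genes without overlap was not counted. Both chains of the receptor had means that were higher without being DEGs, Il10ra by 1.00 (SE 0.45, adjusted p = 0.126) and Il10rb by 0.25 (SE 0.14, adjusted p = 0.193). Thus 2 of the 4 genes were DEGs, both higher, against 17.1% of all 14635 genes tested and 9.25% for higher genes alone. Without A replicate 1 or 2, or B replicate 2 or 3, the adjusted p of Il10 was between 0.01 and 0.0126 and the call was lost, and that of Il19 was lost without any of the 3 libraries of group A (adjusted p up to 0.0250).

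Between the genotypes with LPS, as headed, or for LPS in tlr4f/f-lysM-cre BMDMs, with the headings exchanged, group D was compared with group C. Il10 was higher by a log2 fold change of 3.05 (SE 0.20, adjusted p = 4.21e-08) and Il10ra by 1.41 (SE 0.07, adjusted p = 2.60e-09). Il10rb was higher by 0.50 (SE 0.05, adjusted p = 2.02e-06), a 1.41-fold change that stayed below the threshold of 2. The mean of Il19 was at least 5.19-fold higher in group D, where replicate 2 had 4 counts. The counts of Il19 were below the filter, so it was not among the genes tested. Of the 3 genes tested, 2 were DEGs and both were higher, against 21.7% of all 14540 genes tested and 10.8% for higher genes alone. The 3 libraries of each group lay close together. Over genes with at least 20 counts in a pair of libraries, the chi-square per degree of freedom was 9.52 to 21.2 within groups C and D. Within groups A and B it was 185 to 375, so the p-values here rest on a smaller spread than those with A or B. The call of Il10 held under each of 16 alternative settings, which include leaving out each library, with log2 fold changes between 2.92 and 3.17. That of Il10ra was lost in 1 of the 16, the fit of all 12 libraries together, at 1.42 (adjusted p = 0.0114).

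Group D was then compared with group B, which is the response of tlr4f/f-lysM-cre BMDMs to LPS as headed, and the effect of the genotype with LPS when exchanged. Il10 was lower in D, with a log2 fold change of -4.34 (SE 0.38, adjusted p = 0.00135). Il19 differed by -5.88 (SE 1.09), with no overlap between the groups, and its adjusted p of 0.0115 missed the threshold of 0.01. The differences were -0.45 for Il10ra (SE 0.14, edgeR, adjusted p = 0.0548) and -0.25 for Il10rb (SE 0.10, edgeR, adjusted p = 0.102). The libraries did not overlap in either, and the share of all genes without overlap was not counted. Of the 4 genes tested, 1 was a DEG and it was lower, against 6.08% of all 14234 genes and 3.65% for lower genes alone. Leaving out D replicate 1, 2 or 3 gave Il10 an adjusted p of 0.0161, 0.0178 or 0.0164, and only 4, 7 or 15 DEGs were then left among all genes. Leaving out B replicate 1 made Il19 a DEG at -6.39 (adjusted p = 0.00355).

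Groups C and A give the response of tlr4f/f BMDMs to LPS as headed, and the genotypes without LPS when exchanged. Il10 differed by -1.50 (SE 0.66, adjusted p = 0.223), Il10ra by -0.84 (SE 0.43, adjusted p = 0.285) and Il10rb by -0.48 (SE 0.09, adjusted p = 0.0559), while Il19 was at the floor on both sides and was not tested. None of the 3 genes tested was a DEG, and neither was any of the 14701 genes (0%). Of the genes, 3624 had an unadjusted p below 0.05 in edgeR, and DESeq2 called 464. The library A replicate 3 weighed on this comparison, with 0.486 CPM of Il10 against 2.75 and 3.03 in the other two, and 171 CPM of Il10ra against 48.9 and 77.1. Without it, Il10 differed by -1.97 (adjusted p = 0.00900) and became a DEG, 184 genes were DEGs, and Il10ra differed by -0.20 (adjusted p = 0.524). In the comparison of B with A, leaving it out gave Il10ra a difference of 1.64 (adjusted p = 0.01, not below the threshold).

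**Figure D2:**
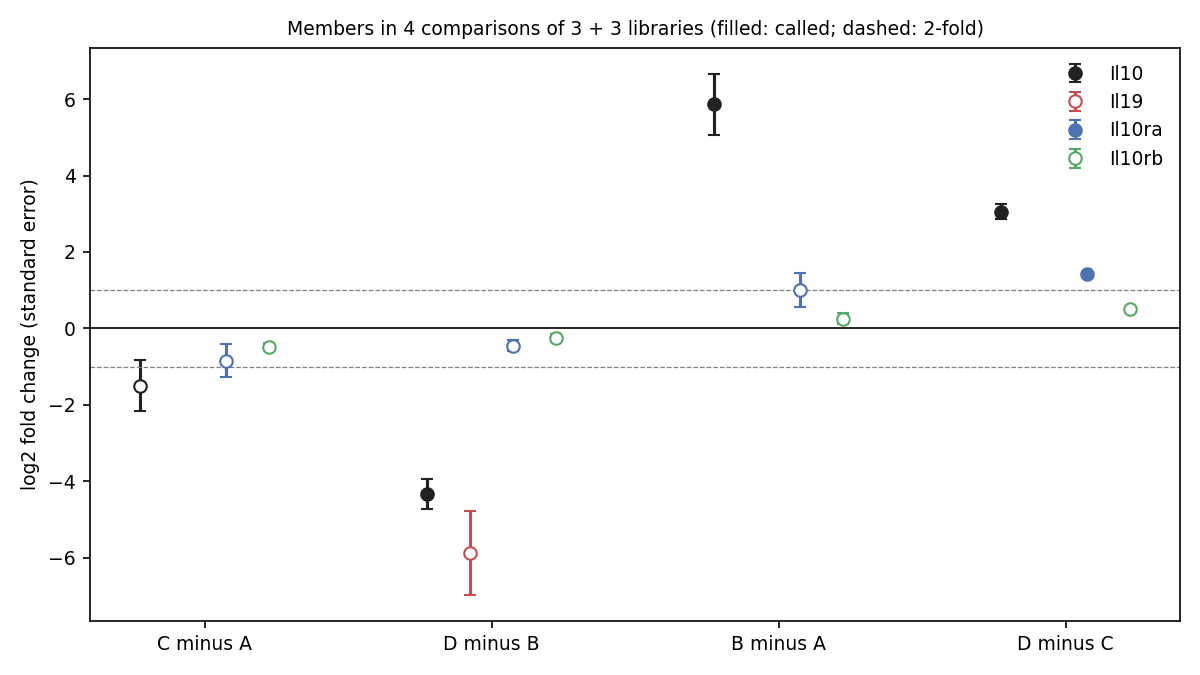
Log2 fold change (vertical axis, bars are the standard error) of the 4 genes in the 4 comparisons of 3 against 3 libraries (horizontal axis). Filled symbols are DEGs, the dashed lines mark 2-fold, and Il19 is drawn only where neither group is at the floor. Il10 reaches 5.87 and -4.34, while Il10rb lies within 0.50 of 0 throughout.

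The difference between the LPS responses of the genotypes, the interaction, is the same under both readings, the difference of D and B minus that of C and A. It was -2.82 for Il10 (SE 0.77, adjusted p = 0.0547), 0.41 for Il10ra (SE 0.49, adjusted p = 0.669) and 0.24 for Il10rb (SE 0.13, adjusted p = 0.297) in the edgeR fit of the 12 libraries. None was called, against 1.04% of 15775 genes. DESeq2 gave Il10 a value of -2.90 (adjusted p = 0.00138), which passed. For Il19, where 2 of the 4 groups were at the floor, no value is given.

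Summed levels of cell type markers differed between these groups, and single markers did not all follow the sum. In B against A, the 1 dendritic cell marker tested was a DEG. No macrophage, neutrophil, fibroblast or lymphocyte marker was, where 17.1% of all genes were. Without being DEGs, all 5 fibroblast markers (median log2 fold change 2.52) and all 4 neutrophil markers tested (3.40) were higher in B. Of the others tested, 4 of 6 macrophage, 2 of 3 B lymphocyte and the 1 T lymphocyte marker were higher. In D against C, 1 macrophage, 2 neutrophil, 1 fibroblast and 1 dendritic cell marker were DEGs and higher. There 1 mast cell or basophil marker was lower, against 21.7% of all genes called. In D against B, 2 fibroblast markers were DEGs and lower (3.65%). The 6 macrophage markers were present in every library. Their summed level was 4985 to 6145 CPM in group A, 7956 to 9239 in B, 3913 to 4115 in C and 5703 to 5859 in D. The lowest and highest group of the sum were those of Il10ra and Il10rb, as for the means of Adgre1, Mertk and Fcgr1. Csf1r averaged 2073, 1376, 1313 and 1712 CPM in groups A to D and Cd68 866, 828, 785 and 613. Both were highest in A, and Itgam was lowest in A. The 5 fibroblast markers, all detected in each group, summed to 655, 60.6 and 8.69 CPM in group A and to 921, 137 and 1462 in group B, and to at most 43.2 in groups C and D. Il10 was 131 CPM and Il19 14.4 CPM in the replicate with 137 CPM, between those of the 2 replicates richer in these markers. A fit of the other 9 libraries was made without the 3 highest in fibroblast markers. It takes the lone library of group B to vary like the rest, so only effect sizes are given here. In that fit Il10 was higher by 6.19 in B than in A and differed by -4.42 between D and B. That lone library, with 137 CPM, still exceeded the 60.6 and 8.69 CPM of the A libraries left, so the imbalance was not removed.

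The 6 neutrophil markers summed to between 0.561 and 11.99 CPM in group A, 26.8, 13.8 and 184 CPM in group B and at most 7.09 in groups C and D, with Ly6g and Retnlg at 3 counts or fewer in every library. The replicate with 184 CPM was also the one highest in Il10 and Il19. The 4 dendritic cell markers summed to 0.189 to 0.650 CPM in groups A and C and 2.56 to 6.13 CPM in groups B and D, and Flt3 and Siglech were at 3 counts or fewer in every library. The T lymphocyte markers summed to 0.222 to 0.834 CPM in A, 1.25 to 6.57 in B, 0.333 to 0.629 in C and 0.689 to 0.878 in D. Lck alone averaged 3.18 CPM in B, and Cd3d and Cd3e were at 3 counts or fewer throughout. The B lymphocyte markers reached at most 1.96 CPM. The mast cell and basophil markers reached at most 2.79 CPM, in group C, where Gata2 alone averaged 2.48 CPM. The part of the fibroblast, macrophage, neutrophil, dendritic cell and lymphoid markers in these results was not tested. In RNA from bulk cultures, a lower level in a group can come from fewer cells that express a gene or from less RNA per cell, and these cannot be told apart.

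Of the rest of the IL-10 family, 10 ligand and receptor genes, only Il20rb passed the filter in any comparison. Il20rb, which encodes the chain through which IL-19, IL-20 and IL-24 signal, averaged 1.18 ± 0.188, 15.3 ± 7.85, 2.27 ± 0.312 and 14.04 ± 2.59 CPM (SD, n = 3) in groups A to D. It was a DEG between B and A, at 3.68 (edgeR, adjusted p = 0.00166), and between D and C, at 2.61 (adjusted p = 2.71e-08). Il20ra, the other chain of the IL-19 receptor, had at most 8 counts in a library. Il24, Ifnl2, Ifnl3, Il22ra1 and Il22ra2 had 0 counts in all 12 libraries, Il20 and Il22 had 1 count in 1 library, and Ifnlr1 had at most 4 counts.

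Most genes of IL-10 signalling and response were DEGs, and higher, in B against A and in D against C. The list holds 16 genes, from the kinases Jak1 and Tyk2 and the factor Stat3 to genes that IL-10 is known to induce, and all 16 were tested in each comparison. This list and that of the regulators were written with earlier results of these data known. Their shares and medians beside those of all genes are therefore a description and no test. In B against A, 10 were DEGs, each higher in B (9.25% of all genes), and the median log2 fold change was 2.24 against -0.08 over all genes. Socs3, the feedback inhibitor of cytokine signalling, led them at 8.17 (SE 0.98, adjusted p = 0.00194), from 7.17 to 2093 CPM. Zfp36, which encodes the mRNA-destabilizing protein tristetraprolin, was higher by 3.75 (adjusted p = 0.000665), and Bcl3, a nuclear regulator of NF-kB, by 3.53 (adjusted p = 0.000970). Leaving out 1 library left between 4 and 9 of these DEGs, with 4 without A replicate 2.

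In D against C, 11 of the 16 were DEGs and higher in D (10.8% of all genes), with a median of 1.33 against -0.02 over all genes and 11 whichever library was left out. Socs3 was higher by 7.65 (SE 0.15, adjusted p = 1.27e-09), Bcl3 by 2.89 (adjusted p = 1.33e-11) and Zfp36 by 2.23 (adjusted p = 8.80e-11). Between D and B, 9 of the 16 were DEGs and lower in D (3.65% of all genes), with a median of -1.39 against 0.03. They were led by Ddit4, a stress-induced inhibitor of mTORC1 (-4.23, adjusted p = 0.00708), Il1rn, the IL-1 receptor antagonist (-2.89, adjusted p = 0.000682), and Socs3 (-2.14, adjusted p = 0.00113). These 9 calls fell to 0 when any 1 library of group D was left out. Between C and A none of the 16 was a DEG, the median being -0.26 against -0.03, and 3 were DEGs without A replicate 3. Many of these genes also respond to LPS without IL-10, and the IL-10 receptor was not blocked in these cells, so the part of IL-10 in their levels was not tested.

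Of the 15 regulators of Il10 transcription, 7 were DEGs in B against A, 6 higher and 1 lower in B, against 17.1% of all genes called, 9.25% higher and 7.81% lower. Prdm1, which encodes the factor BLIMP-1, was higher by 4.19 (adjusted p = 0.00728) and Map3k8, the kinase TPL2 upstream of ERK, by 3.28 (adjusted p = 0.000410), while Rps6ka5, the kinase MSK1, differed by -3.76 (adjusted p = 0.00128). In D against C, 10 were DEGs, 7 higher and 3 lower in D, against 21.7% of all genes called, 10.8% higher and 10.9% lower. Prdm1 was higher by 3.04 (adjusted p = 1.23e-08) and Mapkapk2, the kinase MK2 downstream of p38, by 2.57 (adjusted p = 6.54e-12), and Bhlhe40, a repressor of Il10, differed by -2.59 (adjusted p = 2.55e-10). The medians over the list were 0.58 and 0.86 in the 2 comparisons. The 7 DEGs of B against A fell to 4 without A replicate 2, B replicate 2 or B replicate 3.

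Between D and B, 3 regulators were DEGs, 1 higher and 2 lower in D, against 6.08% of all genes called, 2.42% higher and 3.65% lower. Dusp1, a phosphatase that switches off p38, differed by -2.60 (edgeR, adjusted p = 0.00378) and Cebpb, a factor of the C/EBP family, by -1.27 (adjusted p = 0.00205), and Mapk14, which encodes p38 alpha, was higher by 1.44 in D (adjusted p = 0.00159). With any 1 library of group D left out, none of the 3 remained. None of the 15 was a DEG between C and A, where the median was 0.10. Without A replicate 3, 2 of them were DEGs there.

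**Figure D3:**
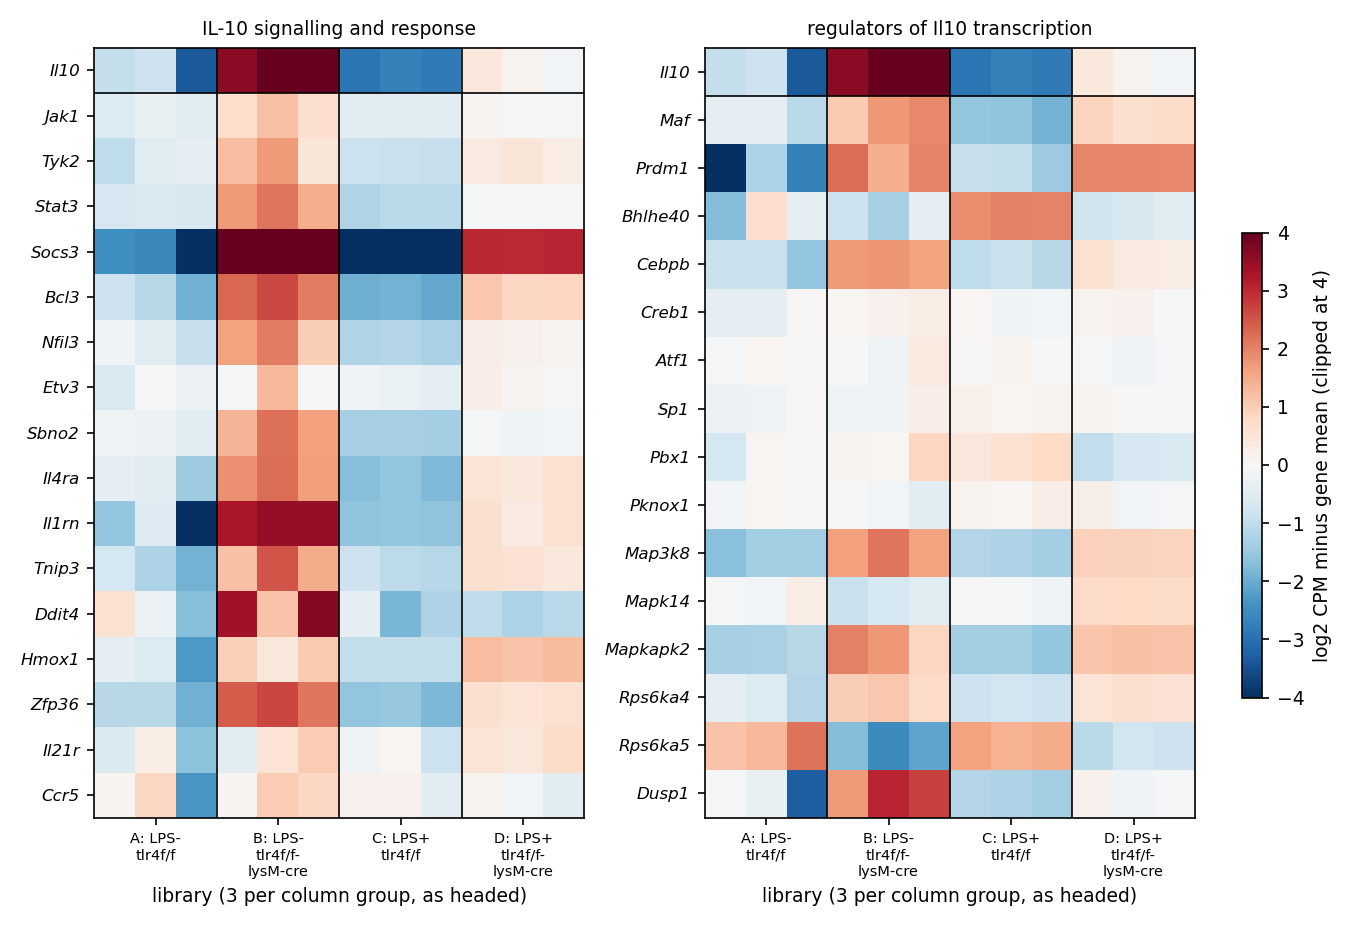
Log2 CPM minus the mean of the gene over the 12 libraries (colour, clipped at 4) for Il10 and the genes of IL-10 signalling and response (left) and for Il10 and its regulators (right), with genes as lines of the map and the 3 libraries of groups A to D as columns. Socs3 and Bcl3 are high in groups B and D, while Rps6ka5 is low there.

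Around Il10, counts were near 0 on the side of Il19 apart from Il19 itself. Of 9 neighbours, Il24, Il20, Fcmr, Pigr and Fcamr had at most 12 counts in a library and were not tested. On the other side, Mapkapk2, whose start site lies 78.0 kb from that of Il10, was higher by 2.84 in B than in A (edgeR, adjusted p = 0.00182), beside the 2.57 between D and C. Dyrk3, which encodes a kinase, differed by -3.20 between B and A (adjusted p = 0.00619) and by -4.47 between D and C (adjusted p = 1.25e-07), opposite in sign to Il10. Rassf5, a Ras effector gene, differed by -2.55 between B and A (adjusted p = 0.000665) and was higher by 1.90 in D than in B (adjusted p = 0.00100). Eif2d, which encodes a translation initiation factor, was not a DEG in any of the 4 comparisons. Of the 4 neighbours tested, 1 was a DEG and higher and 2 lower in B against A, where 17.1% of all genes were called. In D against C 1 was higher and 1 lower, against 21.7%. In D against B 1 of 3 tested was higher (2.42%), and between C and A no gene was called.

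Around Il10rb, the neighbours Ifnar2, Ifnar1, Ifngr2 and Tmem50b all had positive log2 fold changes in B against A and in D against C. Between B and A, Ifnar2, a chain of the type I interferon receptor, was higher by 1.53 (edgeR, adjusted p = 0.00128), and Ifngr2, a chain of the interferon-gamma receptor, by 1.09 (adjusted p = 0.00482). Between D and C, Ifnar1, the other type I chain, was higher by 1.40 (adjusted p = 5.08e-10) and Ifngr2 by 1.07 (adjusted p = 2.02e-09). In each of these comparisons 2 of the 4 were DEGs and higher, against 9.25% and 10.8% of all genes. None of the 4 was a DEG between D and B (6.08% of all genes), or between C and A, where no gene was called.

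**Figure D4:**
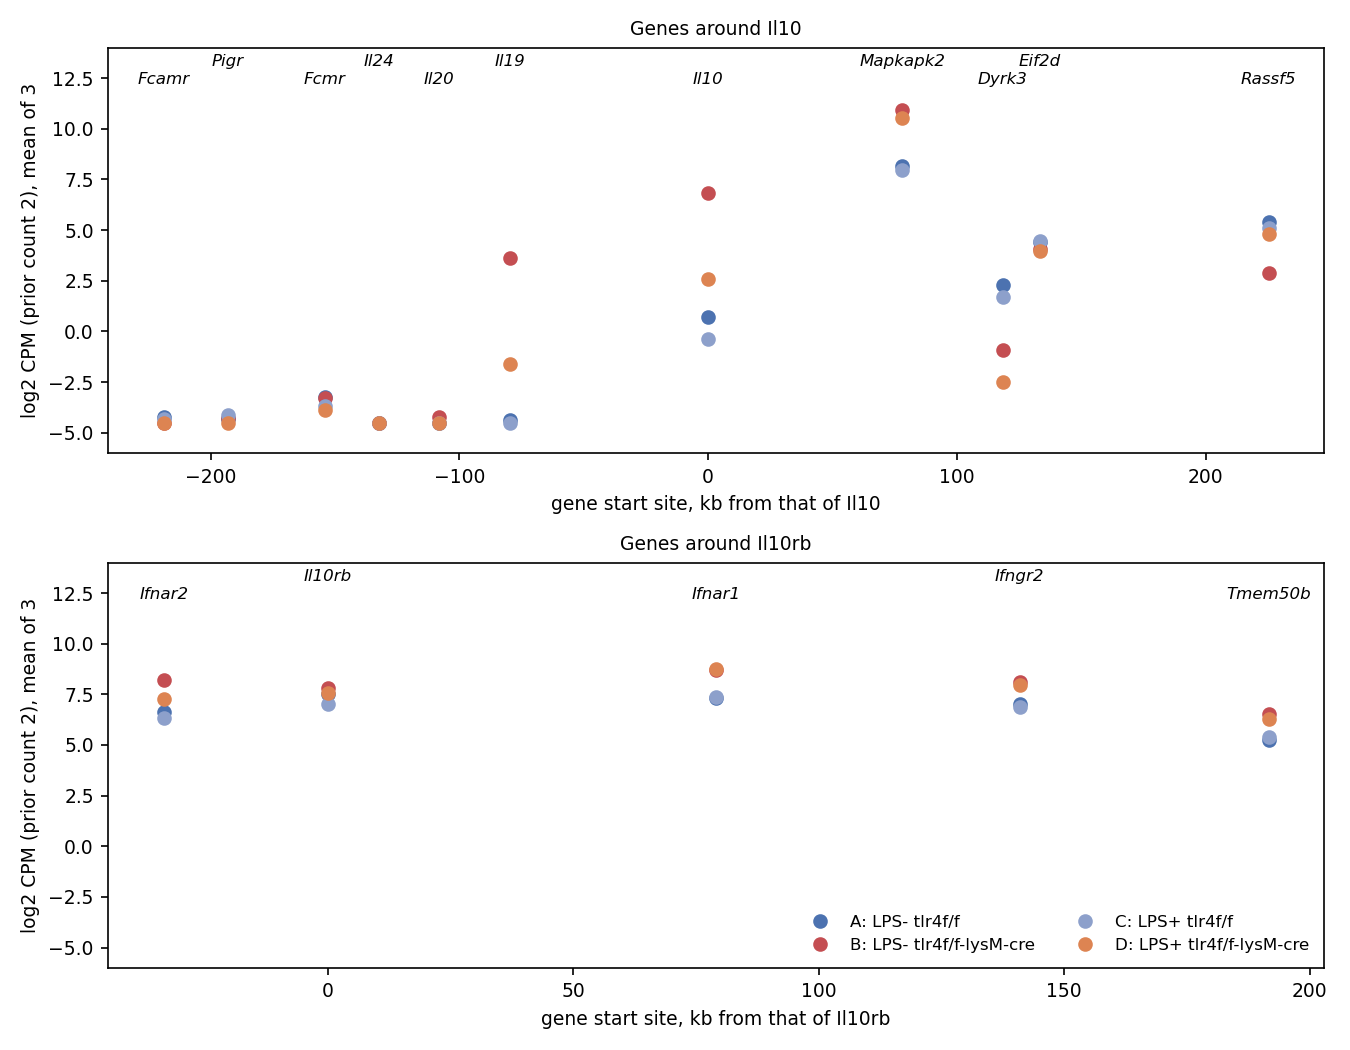
Mean log2 CPM of 3 libraries (vertical axis, prior count of 2) for the genes around Il10 (top) and Il10rb (bottom), placed by the distance of their start site in kb (horizontal axis), in groups A to D. Dots that coincide hide each other. Il19, Il10 and Mapkapk2 spread apart between groups, with Dyrk3 in the opposite direction, while Il20 and Il24 lie at the lower edge.

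Likeness of pattern was measured as the root mean square difference in log2 CPM, centred per gene, over the 12 libraries and among 15775 genes. The nearest to Il10 was BC023105 at 0.485, followed by Gm13822, Mmp25, Gm38525 and Slc28a2. BC023105 averaged 0.0549, 9.29, 0 and 0.624 CPM in groups A to D. The nearest to Il19 was U90926 at 0.880, then BC023105 and Slamf1, and Il10 itself was the fourth at 1.07, before Gm15987. Il19 was at the floor in groups A and C, where its log2 values rest mainly on the prior count. U90926 averaged 0.0110 and 0.00853 CPM in A and C, and Slamf1 0.0110 and 0.0572. How the distances of all genes were spread was not summarized. Nearest to Il10ra were Gm30881 (0.250), Hspbap1, Tmem229b, Tepp and Marf1. For Il10rb they were Aars (0.0893), Gpr107, Mea1, Nckap1l and Zfp335.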

How the data were processed

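RNA of 12 BMDM samples was sequenced as paired ends. The labels give rRNA removal and the paper gives polyA RNA, and which applied was not settled. Per the labels and the paper's methods, the authors trimmed reads with Trimmomatic 0.36, used HISAT2 for alignment to mm10 and HTSeq for counting. The deposited values are raw whole-number counts per transcript, without normalization. Transcripts of a gene share reads, so 1 transcript per gene, that with the highest total, was kept. Of 7596 Ensembl gene IDs, 7551 were given a symbol. Groups follow the column headings. Libraries held a median of 45330681 counts. Reads carry no molecular identifiers, so count floors cover counting error only.

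Counts were tested with edgeR 4.0.16 in R 4.3.3 (filterByExpr, TMM, robust quasi-likelihood fit, Benjamini-Hochberg adjustment over all genes tested). Log2 CPM used a prior count of 2. Overlap between the libraries of a pair of groups is a description, as the share of all genes without it was not counted. A group was at the floor with at most 3 counts in every library. A fold against it divides the mean of the other group by the level of 3 counts per library. It is a lower bound for the ratio of means, not for single libraries. Alternatives were DESeq2 1.42.0, limma 3.58.1 (voom with sample quality weights), RLE factors, other filters, the 12 libraries together, an adjusted p below 0.05, the sum over transcripts, a block on the replicate number, and leaving out each library. A fit without the 3 libraries highest in fibroblast markers was added after seeing the data.

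The members, gene lists, markers and motifs were chosen with earlier results of these data known, from general knowledge. Genes named are the members, up to 3 DEGs per list and comparison with the largest change, Tlr4, Lyz2 and Il1b, and the 5 genes nearest to each member. List genes with few counts are named beside them, chosen after their values were seen. Positions are from GENCODE M21 and the promoter from RefSeq.

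Simulated data had 200 genes changed by 2 on the log2 scale, drawn from genes with higher mean counts. The criteria recovered 34.5% of them for group B against A, 95.5% for D against C and 74.0% for D against B. They recovered 67.0% for C against A and 54.5% for the interaction. These shares do not cover genes near the floor, such as Il19.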

Additional observations from a re-analysis of the deposited data

Results flagged for a closer look

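In 3 genes, the difference between the LPS responses of the genotypes passed the test of the interaction (edgeR, 12 libraries), which is the same under both readings of the headings. They were 1 of 16 genes of IL-10 signalling and response, 1 of 15 regulators and 1 of 4 tested neighbours of Il10 and Il19, against 1.04% of all genes. The interaction was -1.34 on the log2 scale for Stat3 (adjusted p = 0.00813), which averaged 150, 807, 107 and 229 CPM in groups A to D. For Mapk14 it was 1.61 (adjusted p = 0.00236), with 167, 99.9, 148 and 271 CPM. For Rassf5 it was 2.23 (adjusted p = 0.00175), with 43.3, 7.45, 34.2 and 27.7 CPM. With each of the 12 libraries left out in turn, the call of Stat3 was lost in 9 fits, those without a library of A, C or D (adjusted p up to 0.0333), that of Mapk14 in 6, those without a library of C or D (adjusted p up to 0.0129), and that of Rassf5 in 0 (adjusted p up to 0.00946). Beyond leaving out each library in turn, no test for single libraries that stand apart was run.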

How the results depend on the processing

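Over all alternatives other than leaving out 1 library, 220 of 238 values of the 4 genes kept their direction and their side of the thresholds. With replicates 1 to 3 as a block, Il10 in B against A was 5.97 and not called, DEGs for D against B fell to 212 and those of D against A to 922, and no other call of the 4 genes was changed. Same-numbered samples did not deviate together in every pair of any comparison (correlations of -0.04 to 0.47). The highest were 0.47 and 0.34, in B against A for replicates 1 and 2, with 0.014 for replicate 3. In D against C alone did every sample correlate best with its own number (0.058, 0.073 and 0.19). With the headings exchanged, these are the comparisons within a genotype. The numbers were thus not shown to pair the samples. Depth limits Il19 to lower bounds against A and C.

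Without a filter, Il10 was 5.82 and Il19 11.16 in B against A, and Il19 12.64 in B against C, none called. Voom gave Il19 9.40 in B against A, not called (fitted values against a group at the floor are no bounds). Il19 became a DEG for D against B with an adjusted p below 0.05 (-5.88), DESeq2 (-5.95) and 12 libraries in 1 fit (-5.88). Its difference was -5.40 in the fit of 9 libraries. In D against C Il19 was called without a filter (adjusted p = 5.51e-07), and not with 12 libraries (adjusted p = 0.0312). The interaction of Il10 passed with DESeq2 (-2.90), and that of Il10ra was -0.089 with voom. Il10ra in D against C was 1.42 with 12 libraries. Il10rb between D and A was 0.0187 with DESeq2 and 0.0187 with RLE factors, 0.0015 with at least 10 counts in every library, 0.0014 with the replicate block, 0.0016 with 12 libraries and 0.0029 with summed transcripts, all beside -3.23e-05. The causes were not tested.

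DEGs in C against A numbered 92 at an adjusted p below 0.05, 464 with DESeq2, 28 with voom, 34 without a filter, 74 with 12 and 131 with 9 libraries. In D against B they were 1983 at 0.05, 2002 with DESeq2 and 1421 with 9 libraries. In B against A they were 4056 at 0.05, 3992 with DESeq2, 4251 with 12 and 3786 with 9 libraries, and in D against C 2045 with 12. For D against A they were 3045 and 2965, and for the interaction 629 and 644, at 0.05 and with DESeq2. The fit of 9 libraries left a lone library in group B, so the spread within B was not measured there. Numbers of DEGs from that fit are therefore a description and no support for any call.

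With each library left out in turn, Il10 ranged from -1.97 to -1.14 in C against A, from -4.65 to -4.03 in D against B and from 5.39 to 6.23 in B against A. Il19 ranged from -6.39 to -4.68 in D against B, from 10.07 to 12.74 in B against A and from 11.56 to 13.23 in B against C. In D against A, Il10 ranged from 1.06 to 1.90, Il10ra from 0.22 to 1.19 and Il10rb from -0.033 to 0.049. In that comparison Il10 and Il10ra became DEGs without A replicate 3 (1.06 and 1.19). The interaction of Il10ra ranged from -0.24 without that library to 0.74. DEGs ranged from 0 to 184 in C against A, 4 to 1178 in D against B, 1038 to 1682 in B against A, 592 to 2291 for D against A, 2690 to 4388 for B against C and 10 to 306 for the interaction, the last with 10, 14 or 19 without a library of C and 12 to 21 without one of D. The adjusted p of Il10 under its alternatives was at most 0.0132 in B against A and 0.0178 in D against B.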
